A study of Mus musculus with 6 samples.

Results

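The S100 genes measured here were the 10 members S100a1, S100a4, S100a6, S100a8, S100a9, S100a10, S100a11, S100a14, S100a16 and S100b, taken by name from the 20660 genes that a probe of the array could be matched to through its transcript accession. RNA of E18.5 fetal mammary cells, sorted as CD31−CD45−Ter119−EpCAM++CD49f+, was compared with RNA of adult basal mammary cells, sorted from the EpCAM+CD49f+ gate after removal of CD31, CD45, Ter119 and BP-1 positive cells, from mice of 8 to 12 weeks, with 3 biological replicates of each and 1 one-color Agilent array per replicate. All samples were of female C57Bl6J mice and of freshly isolated cells. The comparison asked which transcripts differ between fetal mammary and adult basal cells. The fetal glands were digested briefly and the adult glands overnight, and the gates differ in EpCAM, so that stage, gate and digestion cannot be told apart in any difference below. Each array held 59305 spots other than controls, no spot was saturated, and the share of probes well above background ran from 76.4% to 83.3%. Slide 1 held adult basal replicates 1 and 3 and fetal replicate 1, and slide 2 held the other 3 arrays.

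S100 proteins are small dimeric calcium sensors of the EF-hand type. On binding calcium most of them open a surface that grips a target protein, such as an annexin, a myosin heavy chain or a calcium pump, and a few are released from cells and bind receptors. S100A10 is an exception that no longer binds calcium and stays permanently in the gripping shape. In epithelia they are known for roles in membrane organisation, motility and inflammation.

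No S100 member passed the study's own threshold, which asked of limma's moderated test a p no higher than 0.05 after Holm adjustment and of the difference at least 2-fold. Of the 10 members, 9 passed the filter on low signal and were tested, and 0 of these 9 were called, beside 11.2% of all 15725 genes tested (6.02% higher in fetal and 5.20% higher in adult basal cells). With Benjamini-Hochberg adjustment at the same limits, 4 of the 9 members were called, beside 29.7% of all genes tested (15.8% higher in fetal and 13.9% in adult basal cells). S100a6 and S100a1 were then higher in adult basal cells and S100a16 and S100b higher in fetal cells. At an unadjusted p under 0.05 the same count was 4 of 9, beside 63.8% of all genes. The arrays of both populations did not overlap for 5 of the 9, beside 68.4% of all genes (33.4% higher in fetal and 35.0% in adult basal cells). Only in the count with Benjamini-Hochberg adjustment did the members' share lie above that of all genes, and that count holds S100b and S100a16. S100b passed the low-signal filter through the fetal arrays alone, where it was high, and the S100a16 call rests on 1 of its 2 probes. No excess of the members over all genes is therefore drawn from that count. Their median log2 difference (fetal minus adult basal) was 0.01, against -0.04 over all genes tested. For 1 gene alone, an exact permutation test of 3 arrays against 3 has 0.1 as its smallest p, and the tests given here therefore borrow variance across probes through limma. The RNA came from sorted populations in bulk, in which fewer cells of a type and less RNA per cell cannot be told apart.

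**Figure D1:**
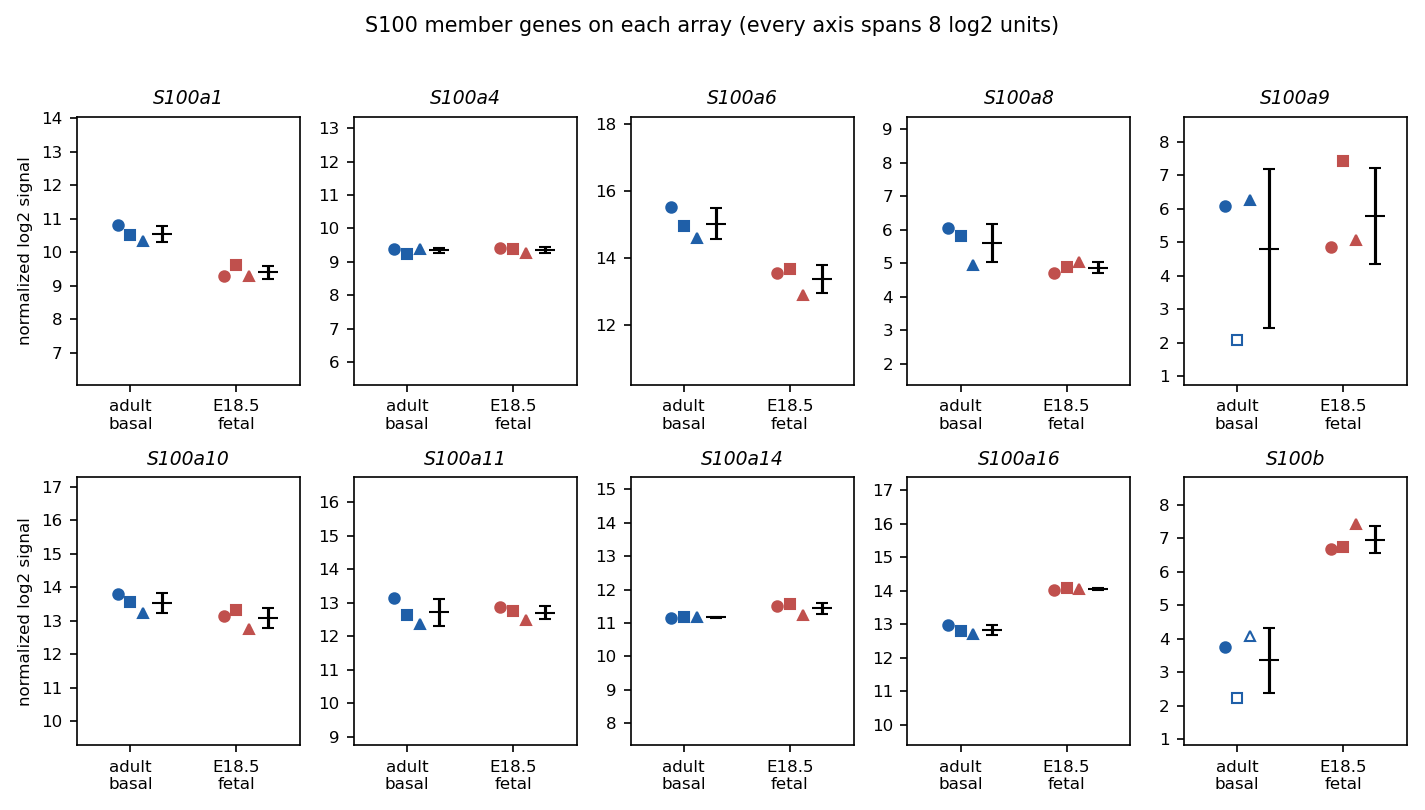
Normalized log2 signal (vertical axis) of the brightest probe of each S100 member on the 3 adult basal arrays (blue) and the 3 E18.5 fetal arrays (red), with circles, squares and triangles for replicates 1, 2 and 3, open symbols for arrays on which the probe was not well above background, and black bars for the mean and SD (n = 3). S100a1 and S100a6 sit lower on all 3 fetal arrays, S100a16 and S100b sit higher on all 3, and the S100a4 and S100a11 arrays of both populations overlap.

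Among the tested members, the largest difference towards adult basal cells was that of S100a6, which encodes calcyclin, a partner of annexins and of the calcyclin-binding protein. Its normalized log2 signal was 15.53, 14.94 and 14.60 on adult basal arrays 1 to 3 and 13.53, 13.67 and 12.89 on the fetal arrays. Every adult basal array was thus above every fetal array, although each population spread widely. The means were 15.02 ± 0.47 (SD, n = 3) and 13.36 ± 0.42 (SD, n = 3), which is 3.16-fold. The log2 difference of -1.66 (standard error 0.28, 95% interval -2.33 to -0.99) had a Benjamini-Hochberg-adjusted p of 0.00164 in limma's test. It was -1.53 within slide 1 and -1.66 within slide 2.

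S100a4, a binding partner of non-muscle myosin heavy chain that is widely used as a mark of fibroblasts, was called with neither adjustment. It stands close to S100a6 on chromosome 3, with S100a5 between them. Its signal was 9.39, 9.25 and 9.40 on the adult basal arrays and 9.42, 9.38 and 9.25 on the fetal arrays. The values of both populations lay within the same narrow range. The log2 difference was 0.01 (standard error 0.10, 95% interval -0.24 to 0.25), so that a change of 2-fold lies outside the interval, and the dimmer S100a4 probe gave 0.01 (standard error 0.18). Of 10 fibroblast markers tested, 2 were called with Holm's adjustment, Dcn (log2 difference -3.78) and Pdgfrb (-4.34), both higher in adult basal cells, beside 11.2% of all genes tested. With Benjamini-Hochberg adjustment 4 were higher in adult basal cells, which added Lum and Thy1, and 1, Fbln1, was higher in fetal cells (log2 difference 1.03, second probe 0.84), beside 29.7% of all genes. At an unadjusted p under 0.05, 9 of the 10 markers passed, beside 63.8% of all genes, and Fbln1 was the only 1 higher in fetal cells. Col1a1 was level (-0.01), and the list was brightest, over the 6 arrays, for Col1a2. The summed signal of the list was 19771, 23583 and 29926 on the adult basal arrays and 9089, 9132 and 11149 on the fetal arrays. All 10 markers were marked as well above background on each array, although fetal Pdgfrb was dim, at 4.92, 4.76 and 5.23. Pdgfrb thus passed the low-signal filter through the adult basal arrays alone, as did Fap, so that their differences could go only that way. The part of fibroblasts in the S100a6 difference was not tested. RefSeq promoter windows, which run from 250 bases before a gene's start, were at hand for 8 of the 10 members. The 120 bases before the starts of S100a4 (chr3:90603650-90603769, + strand, GRCm38.p6) and S100a6 (chr3:90612774-90612893, + strand, GRCm38.p6) are shown from 5′ to 3′, with matches to 4 motifs, sought on both strands, in capitals. They are shown because, of these neighbours, only S100a6 was called with Benjamini-Hochberg adjustment. The difference between these genes was not tested. The motifs were the TATA box TATAAA, the GC box GGGCGG, the AP-1 site TGANTCA and the CArG box.
S100a4: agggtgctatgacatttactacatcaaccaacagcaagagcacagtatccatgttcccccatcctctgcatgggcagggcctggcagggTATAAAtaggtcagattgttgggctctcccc
S100a6: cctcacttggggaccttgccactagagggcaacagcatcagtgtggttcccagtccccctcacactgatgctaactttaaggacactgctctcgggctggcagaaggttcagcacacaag
The TATA box of S100a4 began 31 bases before the start, and the S100a6 stretch held no match to any of the 4 motifs. Among all 32851 promoter windows, the same 120 bases held a TATA box in 6.34%, a GC box in 26.5%, an AP-1 site in 3.41% and a CArG box in 0.749%.

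S100a1, known from muscle as a regulator of the calcium pump and the ryanodine receptor, was measured by 2 probes that gave the same direction. The brighter probe read 10.81, 10.52 and 10.33 on the adult basal arrays and 9.28, 9.63 and 9.29 on the fetal arrays. No fetal array reached an adult basal one. The log2 difference was -1.15 (standard error 0.16, Benjamini-Hochberg-adjusted p = 0.000596 in limma's test), with means of 10.55 ± 0.24 (SD, n = 3) and 9.40 ± 0.20 (SD, n = 3). The dimmer probe gave a log2 difference of -1.51 (standard error 0.16), which with a limma p of 0.395 after Holm adjustment also missed the study's threshold. Within slides 1 and 2 the brighter probe gave -1.28 and -1.06. Among the classical targets of S100A1, Atp2a2, the sarcoplasmic and endoplasmic reticulum calcium pump, also had its higher signal in adult basal cells (log2 difference -2.40, standard error 0.13, called with Holm's adjustment), whereas the ryanodine receptor gene Ryr2 was never well above background. Another ryanodine receptor gene, Ryr1, was tested and went the opposite way at a low signal, with a log2 difference of 0.64 (standard error 0.12) that was below 2-fold. Ryr1 passed the low-signal filter through the fetal arrays alone.

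S100a1 lies head to head with S100a13, a family gene outside the 10 members whose protein takes part in the release of growth factors that lack a signal peptide. In GRCm38.p6 the starts of S100a1 on the − strand and of S100a13 on the + strand are separated by 104 bases (chr3:90514331-90514434, shown on the + strand because both genes could read from it).
S100a1 to S100a13: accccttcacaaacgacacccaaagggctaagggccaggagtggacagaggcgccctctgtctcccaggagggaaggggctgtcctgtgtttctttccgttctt
The stretch is 58.7% G and C and holds none of the 4 motifs. S100a13 read 11.94, 12.12 and 11.75 on the adult basal arrays and 11.54, 11.63 and 11.42 on the fetal arrays. The ranges did not overlap, and the log2 difference of -0.41 (standard error 0.13, Benjamini-Hochberg-adjusted p = 0.0274 in limma's test) was below 2-fold. Its 95% interval, -0.71 to -0.10, did not meet that of the brighter S100a1 probe, -1.53 to -0.77, but the difference between these genes was not tested.

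S100a16, a widely expressed member with a weak calcium site, was the member closest to the study's threshold. Its probe with the higher mean over all arrays read 12.98, 12.80 and 12.70 on the adult basal arrays and 14.03, 14.08 and 14.05 on the fetal arrays. The fetal arrays lay close together and all lay above the adult basal arrays. The log2 difference was 1.23 (standard error 0.11, 95% interval 0.97 to 1.48), with a Holm-adjusted p of 0.138 and a Benjamini-Hochberg-adjusted p of 5.41e-05 in limma's test. The second probe, matched to the same RefSeq transcript, gave another picture. It read 13.52, 12.69 and 13.13 on the adult basal arrays and 13.06, 13.04 and 12.97 on the fetal arrays, so that the fetal values lay inside the adult basal range. Over the adult basal arrays its mean, 13.11, was above the 12.83 of the first probe. The first probe thus stood for the gene only through its fetal signal. The log2 difference of the second probe was -0.09 (standard error 0.20, 95% interval -0.56 to 0.38), and the mean of both probes gave 0.57, below 2-fold. The S100a16 difference is thus a result of 1 of its 2 probes.

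**Figure D2:**
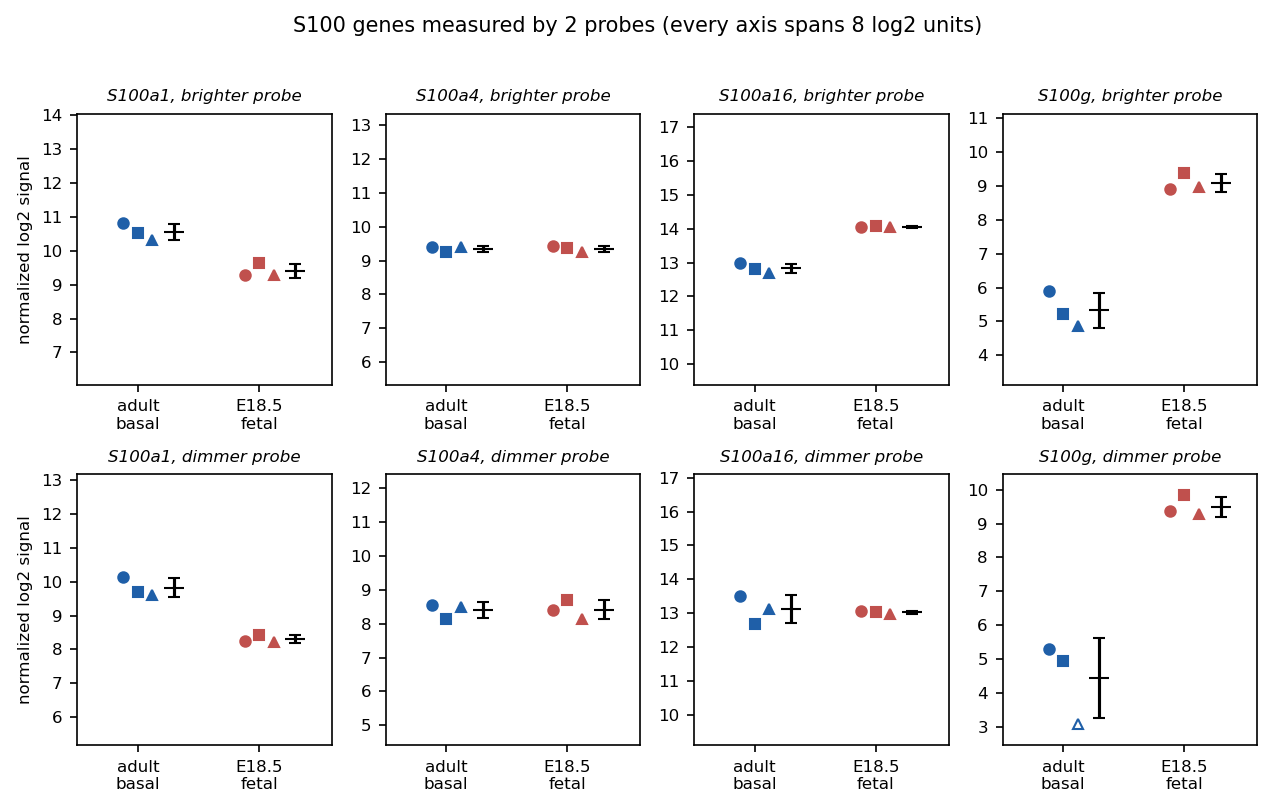
Normalized log2 signal (vertical axis) of the brighter probe (upper row) and the dimmer probe (lower row) of the 4 S100 genes with 2 probes, for 3 adult basal (blue) and 3 E18.5 fetal arrays (red), with circles, squares and triangles for replicates 1, 2 and 3, open symbols where the probe was not well above background and black bars for the mean and SD (n = 3). Both probes place S100a1 lower and S100g higher on the fetal arrays and S100a4 level, whereas the S100a16 probes differ, with log2 differences of 1.23 and -0.09. Brighter and dimmer refer to the mean over all arrays.

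RefSeq lists 2 starts for S100a16, and the 120 bases before each are shown because its probes disagreed, the first at chr3:90537134-90537253 and the second at chr3:90541026-90541145 (both + strand, GRCm38.p6), with motif matches in capitals. Which start feeds which probe was not tested.
S100a16 first start: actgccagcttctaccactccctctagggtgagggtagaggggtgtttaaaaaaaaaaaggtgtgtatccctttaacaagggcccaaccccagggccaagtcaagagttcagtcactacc
S100a16 second start: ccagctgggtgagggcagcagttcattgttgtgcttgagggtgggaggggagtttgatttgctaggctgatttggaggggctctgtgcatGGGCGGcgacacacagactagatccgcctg
The first stretch held none of the motifs, and the second held a GC box 30 bases before the start.

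S100a14, an epithelial member and the neighbour of S100a16 on chromosome 3, differed little. It read 11.14, 11.19 and 11.18 on the adult basal arrays and 11.50, 11.57 and 11.24 on the fetal arrays. Each fetal array was above each adult basal array, though only narrowly for fetal replicate 3. The log2 difference of 0.27 (standard error 0.12, 95% interval -0.01 to 0.54) did not pass either adjustment, with a Benjamini-Hochberg-adjusted p of 0.0836 in limma's test.

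S100b, the member best known from glia, melanocytes and fat cells, had the largest difference of the 10. It read 3.76, 2.24 and 4.07 on the adult basal arrays and 6.69, 6.75 and 7.42 on the fetal arrays. The gap between the populations was wide, but the adult basal signal was dim, and only 1 of those 3 arrays was well above background. The means were 6.95 ± 0.40 (SD, n = 3) and 3.36 ± 0.98 (SD, n = 3). The log2 difference of 3.60 (standard error 0.47, 95% interval 2.50 to 4.69, Benjamini-Hochberg-adjusted p = 0.000376 in limma's test) therefore rests partly on signal near background. S100b also passed the low-signal filter through the fetal arrays alone, so that a member with this pattern could be tested only because it was high there. With each adult basal array raised to the dimmest signal that counted as well above background where it lay lower, the adult basal mean was 3.96, against 6.95. The log2 difference was 2.78 within slide 1 and 4.85 within slide 2, where the only adult basal array was replicate 2, not well above background, and it was 3.37 without fetal replicate 3. The 120 bases before its start on chromosome 10 (chr10:76253716-76253835, + strand, GRCm38.p6) are shown because S100b stood farthest from 0.
S100b: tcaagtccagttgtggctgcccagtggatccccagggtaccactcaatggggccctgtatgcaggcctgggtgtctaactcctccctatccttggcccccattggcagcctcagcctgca
None of the 4 motifs was found there.

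Markers of the other cells that carry S100b gave no common direction. Of 12 glial and melanocyte markers, 10 were tested and 0 were called with Holm's adjustment, and with Benjamini-Hochberg adjustment the melanocyte enzyme gene Dct was the 1 called, beside 29.7% of all genes. At an unadjusted p under 0.05 there were 6, beside 63.8% of all genes, 3 higher and 3 lower in fetal cells. Dct read 4.90, 4.47 and 4.33 on the adult basal arrays and 6.11, 6.81 and 7.59 on the fetal arrays, a log2 difference of 2.27 (standard error 0.35). Dct passed the low-signal filter through the fetal arrays alone, so that its call could go only that way. Its highest array was fetal replicate 3, as for S100b. The Schwann cell genes Cdh19 and Foxd3 were never well above background. Sox10, the brightest of the list and also a gene of mammary epithelium, had a mean of 13.44 ± 0.30 (SD, n = 3) over the adult basal and 13.61 ± 0.19 (SD, n = 3) over the fetal arrays. The summed signal of the list was 20645, 16914 and 18239 on the adult basal arrays and 18042, 19085 and 21466 on the fetal arrays. Of 7 adipocyte markers, 0 were called with either adjustment, and 3 had an unadjusted p under 0.05, beside 63.8% of all genes. Of these 3, Fabp4 had a log2 difference of -1.21 and Adipoq and Pparg of 2.28 and 0.31, the Adipoq value resting on adult basal signal that was not well above background. The dimmer Cidec probe, which did not stand for its gene, gave 3.07 and was called with Benjamini-Hochberg adjustment. It was well above background only on fetal replicates 1 and 3. The summed signal of the list, brightest for Fabp4, was 2519, 2383 and 2795 on the adult basal arrays and 1653, 1513 and 3322 on the fetal arrays. Adipoq, which defines fat cells, was well above background only on fetal replicates 1 and 3, and read 5.62, 3.99 and 8.17 on the fetal arrays. Fetal replicate 3 thus stood apart for fat cell transcripts, and the part of such cells in the S100b difference was not tested.

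S100a10 and S100a11 encode proteins best known in complexes with annexins, S100A10 as a tetramer with annexin A2 and S100A11 with annexin A1. S100a10 read 13.81, 13.55 and 13.23 on the adult basal arrays and 13.15, 13.34 and 12.77 on the fetal arrays. The ranges overlapped, and the log2 difference was -0.45 (standard error 0.20, 95% interval -0.91 to 0.02). S100a11 read 13.15, 12.64 and 12.36 against 12.87, 12.76 and 12.49, with a log2 difference of -0.01 (standard error 0.21, 95% interval -0.51 to 0.49). For both, a change of 2-fold lay outside the interval.

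Their annexin partners differed from each other. Anxa2, the partner of S100A10, read 16.32, 16.30 and 16.19 on the adult basal arrays and 16.23, 16.18 and 15.84 on the fetal arrays, a log2 difference of -0.18 (standard error 0.13, 95% interval -0.49 to 0.12). Neither gene of that pair was called with either adjustment. Anxa1, the partner of S100A11, read 13.73, 13.37 and 13.41 on the adult basal arrays and 15.13, 15.52 and 14.68 on the fetal arrays, and its log2 difference of 1.61 (standard error 0.22) was called with Benjamini-Hochberg adjustment but not with Holm's. Its second probe gave 1.33. S100a11 showed no such difference. Of 12 annexin genes, 11 were tested and 2 were called with Holm's adjustment, both higher in adult basal cells, where 5.20% of all genes tested were called in that direction. These were Anxa8 (log2 difference -5.14, standard error 0.19) and Anxa5 (-1.80, standard error 0.09). A second Anxa8 probe gave -3.23 (standard error 0.61) and was not called with Holm's adjustment, and neither was the mean of both Anxa8 probes, at -4.18. With Benjamini-Hochberg adjustment 5 were higher in adult basal cells, which added Anxa3, Anxa4 and Anxa7, and 1, Anxa1, was higher in fetal cells, beside 13.9% and 15.8% of all genes. The median log2 difference of the annexins was -0.64, against -0.04 over all genes tested. Anxa5 lost its Holm call without any 1 of fetal replicates 1, 2 or 3, which left 1 annexin called.

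Of the other partners of S100 proteins, 16 of 20 genes were tested and 3 were called with Holm's adjustment, beside 11.2% of all genes tested. Ezr, which encodes the membrane linker ezrin, was higher in fetal cells (log2 difference 2.06, standard error 0.12), and Atp2a2 and Plat were higher in adult basal cells. Plat, which encodes the tissue plasminogen activator that S100A10 binds at the cell surface, read 10.22, 9.83 and 9.82 on the adult basal arrays and 7.61, 7.22 and 7.68 on the fetal arrays (log2 difference -2.45, standard error 0.17). Without any 1 of fetal replicates 1, 2 or 3, the count was 0. Plat also lost its call without adult basal replicate 1, 2 or 3, with limma p-values after Holm adjustment of 0.128, 0.0783 and 0.169, and under 10 of 18 alternatives in all. Benjamini-Hochberg adjustment gave 9 called genes, beside 29.7% of all genes, and 6 of them were higher in adult basal cells, beside 13.9%. Among these were Myh9, the myosin target of S100A4 (log2 difference -1.70, standard error 0.14), and Ahnak, the large scaffold of the annexin A2 and S100A10 complex (-1.58, standard error 0.20). The remaining genes called were Bsg, a receptor of S100A9 (-1.62), and Tlr4 in the same direction, and Ppp5c, a phosphatase (1.19), and the plasminogen receptor gene Plgrkt (1.55) in the opposite one. The other 3 Ahnak probes ranged from -3.51 to -0.92. Cacybp, which encodes the calcyclin-binding protein, had a log2 difference of 0.96 (standard error 0.13), opposite in sign to that of S100a6 and just under 2-fold. The median log2 difference of the 16 genes was -0.15.

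**Figure D3:**
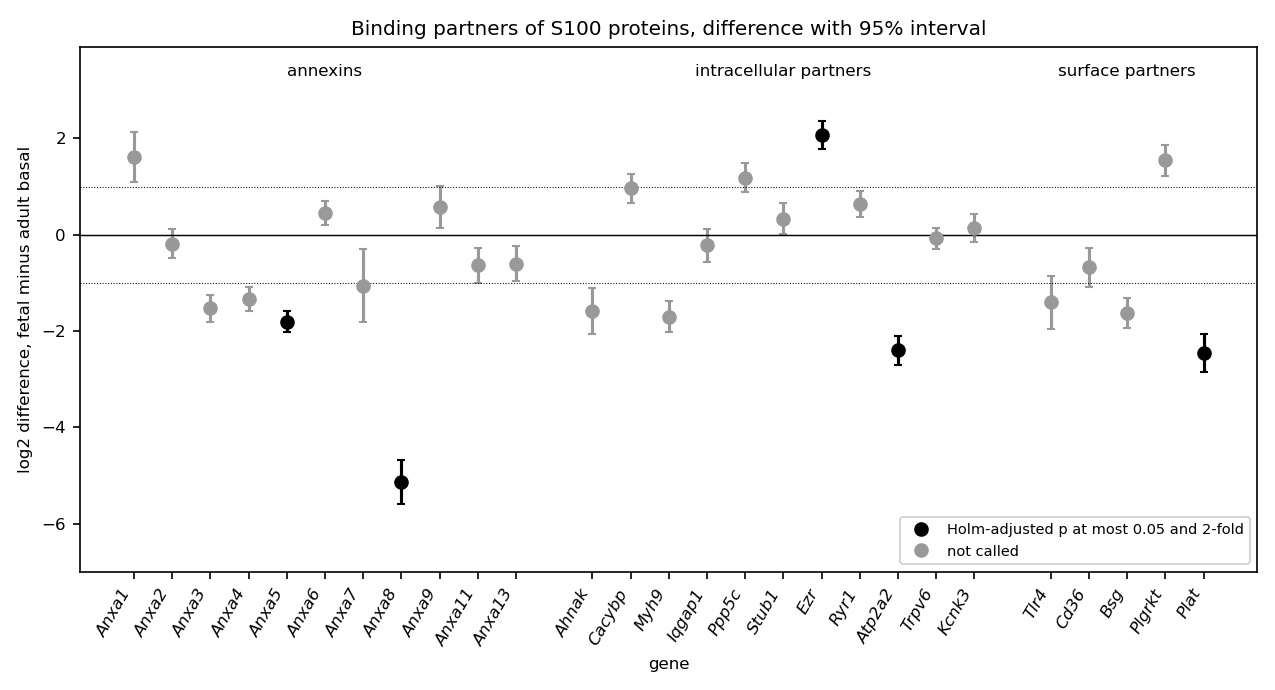
Log2 difference between fetal and adult basal cells (vertical axis, fetal minus adult basal, points) with limma's 95% interval (bars) for the tested annexin genes, intracellular partners and surface partners of S100 proteins, in black where the Holm-adjusted p was at most 0.05 and the difference at least 2-fold. Anxa8 lies lowest at -5.14 and Ezr highest at 2.06, and Anxa2, the partner of S100A10, lies at -0.18.

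S100a8 and S100a9 encode the subunits of calprotectin, an alarmin stored in neutrophils that signals through Tlr4 and Ager once released. Both were dim. S100a8 read 6.04, 5.81 and 4.96 on the adult basal arrays and 4.71, 4.89 and 5.03 on the fetal arrays, and was left untested by the low-signal filter. Its ranges overlapped through adult basal replicate 3, with means of 5.60 ± 0.57 (SD, n = 3) and 4.88 ± 0.16 (SD, n = 3). S100a9 read 6.09, 2.07 and 6.27 against 4.85, 7.42 and 5.06. Adult basal replicate 2 was not well above background and fetal replicate 2 was the highest of all. The low-signal filter takes each population's mean on the linear scale, and S100a9 passed it in the fetal population alone, where that array dominates the mean. The sign of its log2 difference, 0.97 (standard error 1.20), turned with the slide. It was -1.33 within slide 1 and 4.17 within slide 2, and -0.40 without adult basal replicate 2.

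Of the neutrophil markers, Ngp, Mmp8 and Retnlg were well above background on none of the 6 arrays, and Camp, Ltf, Mpo and Elane on all 6. Mmp9 and Cxcr2 were well above background on some arrays. Of the 9 neutrophil markers with a probe, 4 were tested and 0 were called with Holm's adjustment, beside 11.2% of all genes. Mpo was the 1 called with Benjamini-Hochberg adjustment (log2 difference -1.01), beside 29.7%, and likewise the 1 at an unadjusted p under 0.05, beside 63.8%. It passed the low-signal filter through the adult basal arrays alone, so that its call could go only that way. The summed signal of the 9 markers, which was mostly that of Elane, was 18023, 19152 and 14971 on the adult basal arrays and 16022, 15262 and 16210 on the fetal arrays. Of 11 general leukocyte markers, 0 were called with Holm's adjustment. With Benjamini-Hochberg adjustment 2 were called, Cd74 (log2 difference -2.79) and Lyz2 (-1.76), both higher in adult basal cells. At an unadjusted p under 0.05 there were 4. These counts stand beside the same shares of all genes. Lyz2 passed the low-signal filter through the adult basal arrays alone. Ptprc, which encodes CD45, the antigen used to remove blood cells, had a mean of 7.07 ± 0.22 (SD, n = 3) over the adult basal and 6.75 ± 0.48 (SD, n = 3) over the fetal arrays. The leukocyte sum was 125017, 139285 and 125939 on the adult basal arrays and 133385, 119503 and 108212 on the fetal arrays. It was mostly the signal of Csf3r, the brightest of the list (log2 difference -0.15), so that it says little of the other markers. The receptor genes were not tested against S100a8 or S100a9. On the fetal arrays Tlr4 read 6.02, 6.22 and 5.29, near the cut of the low-signal filter. Tlr4 had a log2 difference of -1.41 (standard error 0.23, Benjamini-Hochberg-adjusted p = 0.00132 in limma's test), and Ager, at 5.19 ± 0.13 (SD, n = 3) and 5.21 ± 0.30 (SD, n = 3) in fetal and adult basal cells, was below the low-signal filter.

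Another 9 genes whose symbol begins with S100 had probes, and 7 of them were tested. S100g, which encodes the vitamin D-dependent calcium buffer calbindin-D9k, was the only S100 gene called with Holm's adjustment among those tested. It passed the low-signal filter through the fetal arrays alone, and without that filter its Holm-adjusted p was 0.282 in limma's test. Its probe with the higher mean over all arrays read 5.90, 5.21 and 4.87 on the adult basal arrays and 8.91, 9.39 and 8.96 on the fetal arrays. The populations were far apart, at 13.6-fold. The log2 difference was 3.76 (standard error 0.27), with a limma p of 0.033 after Holm adjustment, and the dimmer probe gave 5.05 (standard error 0.54, Holm-adjusted p = 0.441). That second probe read 9.37, 9.83 and 9.27 on the fetal arrays and was thus the brighter one there. It ranked lower through its adult basal values, 5.30, 4.93 and 3.08. The S100g call was lost under 11 of 18 alternatives, all 18 of which kept the direction. With slide as a block limma's p after Holm adjustment was 0.178, and with replicate number as a block it was 0.110. Leaving out adult basal replicate 2 raised limma's p after Holm adjustment to 0.154, and leaving out adult basal replicate 3 raised it to 0.0991. Leaving out fetal replicate 1, 2 or 3 gave 0.360, 0.299 and 0.302. S100a3, a gene of the hair cuticle, had a log2 difference of 0.92 (standard error 0.16), just under 2-fold, S100a2 and S100a5 gave -0.25 and -0.17, and the S100P-binding protein gene S100pbp, which is not itself an S100 protein, gave -0.35. S100a7l2 was well above background on no fetal array and was at least 3.82-fold brighter in adult basal cells, where 2 of 3 arrays were well above background. S100a7a, another skin gene of the family, was likewise not well above background in fetal cells and at least 1.86-fold brighter in adult basal cells. Each bound sets the adult basal mean against the mean over fetal arrays of either the probe's own value or, where higher, the dimmest signal that counted as well above background on that array. S100z was dim on all arrays and was not tested.

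**Figure D4:**
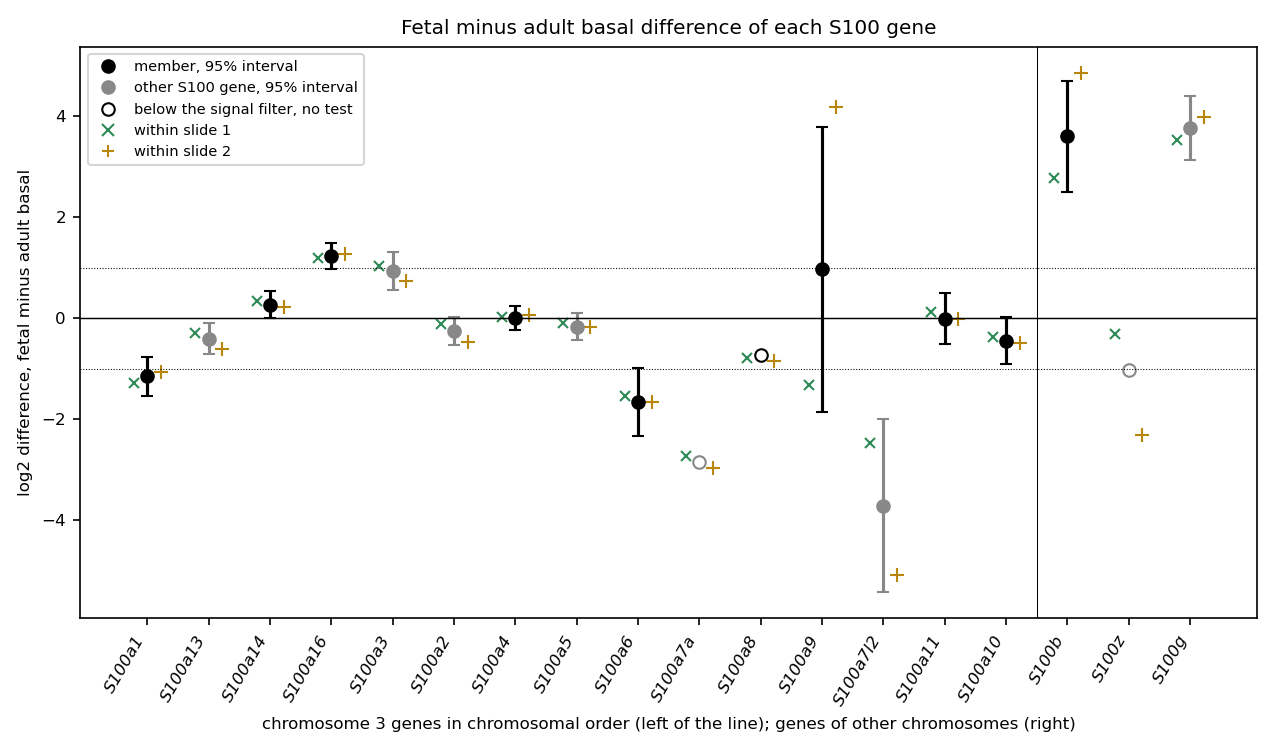
Log2 difference between fetal and adult basal cells (vertical axis, fetal minus adult basal) for each S100 gene, with the 15 genes of chromosome 3 in chromosomal order to the left of the line and those of other chromosomes to the right, members in black and other genes in grey, bars for limma's 95% interval, open circles for genes below the low-signal filter, and crosses and plus signs for the differences within slides 1 and 2. The chromosome 3 genes lie on both sides of 0, with S100a16 highest at 1.23, S100a6 lowest among the members at -1.66, and the points of S100a7a and S100a7l2 depending on fetal signal that was not well above background, and S100b and S100g lie highest, at 3.60 and 3.76.

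The position of the genes gave no single direction. In the RefSeq gene order of chromosome 3, S100a1, S100a13, S100a14, S100a16, S100a3, S100a2, S100a4, S100a5, S100a6, S100a7a, S100a8 and S100a9 follow each other with no other protein-coding gene between them, S100a7l2 comes next, past 1 other protein-coding gene, and S100a11 and S100a10 lie a further 54 protein-coding genes along. Within this run, S100a1 and S100a6 were lower and S100a16 higher in fetal cells with Benjamini-Hochberg adjustment, and S100a4 between them did not pass it. The S100a16 call rests on 1 of its 2 probes. S100a7l2, just past the run, was lower in fetal cells with Benjamini-Hochberg adjustment, but no fetal array was well above background. It passed the low-signal filter through the adult basal arrays alone, so that its call adds nothing on position. S100b and S100g, which had the largest differences towards fetal cells, lie elsewhere, on chromosomes 10 and X. They passed the low-signal filter through the fetal arrays alone, so that their calls likewise add nothing on position.

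The populations themselves were checked on their defining transcripts, for which the shares of all genes were 11.2% called with Holm's adjustment, 29.7% with Benjamini-Hochberg adjustment (13.9% higher in adult basal cells) and 63.8% at an unadjusted p under 0.05. Of 10 basal and myoepithelial markers, 8 were called with Holm's adjustment and all 8 were higher in adult basal cells, among them Acta2 (log2 difference -4.07), the brightest of the list, and Krt5 (-3.90). Krt14 and the brighter Trp63 probe overlapped between the populations, while a second Trp63 probe gave -3.06. Of 10 luminal markers, 9 were tested and 4 were called, all higher in fetal cells, namely Foxa1, Kit, Elf5 and Cd24a. With Benjamini-Hochberg adjustment 1 luminal marker, Krt19, was higher in adult basal cells (log2 difference -1.22). Esr1 was left untested because its brightest probe, at -1.06, was below the low-signal filter. Its other probes gave -3.58 and -1.58. The former was called with Benjamini-Hochberg adjustment, with only 1 fetal array well above background. The brighter Prlr probe gave -0.35 and the dimmer one 1.85, which was called with Holm's adjustment. The brightest of the list was Krt18 (log2 difference 0.58, below 2-fold). Of 8 epidermal markers with a probe, 5 were tested and 1, Krt10, was called, higher in fetal cells (log2 difference 1.47). With Benjamini-Hochberg adjustment 3 were higher in fetal cells and 1, Sbsn, the brightest of the list, was higher in adult basal cells (log2 difference -1.51). Krtdap, not well above background on adult basal replicate 3, read 3.89, 5.17 and 1.71 on the adult basal arrays and 7.80, 7.31 and 7.99 on the fetal arrays. It passed the low-signal filter through the fetal arrays alone. Of 7 endothelial markers, 5 were tested and 0 were called with Holm's adjustment, 3 with Benjamini-Hochberg adjustment, all higher in adult basal cells, and 3 had an unadjusted p under 0.05. The brightest of them, Kdr, was level (log2 difference -0.04). Cdh5, which defines endothelium, read 3.62, 4.49 and 6.36 on the fetal arrays, highest again on fetal replicate 3. S100a6 was lower on fetal replicate 3 than on the other fetal arrays, and without that array its log2 difference was -1.42, still called with Benjamini-Hochberg adjustment.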

How the data were processed

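Per the labels, scans were read in version 11.0.1.1 of Agilent Feature Extraction, and the deposited green processed signal is a linear intensity with background and spatial trend removed within each array. The authors also deposited a table of log2 values, quantile normalized in GeneSpring, which was used as an alternative only. Each of its columns followed its own array (correlation of deviations from 0.998 to 0.999). Its column medians were 7.11 (log2) on all 6 arrays, as against 7.10 here. Probes were named through their accessions, of which 27235 of 55681 matched the RefSeq table of GRCm38.p6.

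Here, spots marked as outliers and control spots were left out, a probe's spots were averaged on the log2 scale, and quantile normalization was then applied over the 6 arrays. Each probe's signal was averaged on the linear scale within each population and its log2 taken, and probes in the lowest of 3 k-means clusters of these values in both populations (below 5.95) were removed, which left 20448. A probe below this cut in 1 population was tested only if the other population lay above it, as was so for several list genes. The probe with the highest mean log2 signal over the 6 arrays, called the brightest or brighter one, stood for a gene. All probes kept entered 1 linear model (limma 3.58.1, lmFit and eBayes; R 4.3.3), with Holm adjustment as in the methods and Benjamini-Hochberg adjustment as an alternative. Tables were made in Python 3.11.15 with pandas 2.3.3. The number of arrays limits the precision. On simulated data with 200 of 20448 probes changed by 2 log2 units, the fit recovered 54.0% with Holm adjustment and 1 false call, and 186 with Benjamini-Hochberg adjustment and 3 false calls.

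The members, the lists of annexins, partners and cell type markers, and the rule for naming genes were chosen with earlier results of these data known. Named were all S100 genes, partners that were called or bind a member directly, and a list's brightest and defining genes. Some other list genes were named after their values were seen. The rule for genes of like pattern needed a called member and so gave none. Replicate numbers of the labels were checked for pairing and were not treated as pairs.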

Additional observations from a re-analysis of the deposited data

How the results depend on the processing

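The alternatives were 75th percentile scaling, the deposited values, normexp correction, other filters, all probes, Benjamini-Hochberg adjustment, trend and robust variance, 16 added to each signal, leaving out each array, blocks for slide and replicate number, and averaging a gene's probes. The count of members called stayed 0 under 15 of 18 alternatives. It was 4 with Benjamini-Hochberg adjustment, which calls S100a1, S100a6, S100a16 and S100b, and 1, S100a16, with trend and robust variance and with the offset. The log2 differences there were -1.15, -1.66, 1.23 and 3.60. With Benjamini-Hochberg adjustment throughout, which was added after the data were seen, the count was 3 or 4 under all 17 alternatives, and S100b was left untested by the normexp correction and the offset, which keep fewer probes. Without 1 array it was 4 each time. Near 0, S100a4 reversed to -0.044 with normexp and lay between -0.042 and 0.054 without 1 array. S100a11 reversed to 0.047 with slide as a block and 0.11 within slide 1, and lay between -0.19 and 0.21 without 1 array. S100a9 reversed to -1.33 within slide 1, was 4.17 within slide 2, and lay between -0.40 and 1.70 without 1 array. S100b was 2.78 and 4.85 within the slides. The cause was not tested. Annexins called were 2 in the main setting, 6 with Benjamini-Hochberg adjustment, 4 with normexp, with trend and robust variance and with the offset, and 1 to 2 without 1 array. Partners and receptors called were 3, 9 with Benjamini-Hochberg adjustment, 6 with normexp, with trend and robust variance and with the offset, 1 without the low-signal filter, 1 with slide as a block, and 0 to 3 without 1 array. With the replicate block 0 members, 1 annexin and 1 partner gene were called. Deviations of same-numbered arrays correlated only weakly, at -0.03, 0.09 and 0.05, which cannot show whether the arrays were paired. Signal near background limits S100a8, S100a9 and the adult basal level of S100b.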
